A study of Mus musculus with 10 samples.

Results

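The fibroblast growth factor (FGF) genes described here are the ligand genes Fgf2, Fgf5, Fgf7, Fgf10, Fgf18 and Fgf22, the related intracellular factor gene Fgf13, and the receptor genes Fgfr1, Fgfr2 and Fgfr3. They were chosen by name, with earlier results of these data known. Every probe whose platform annotation gives 1 of these symbols was taken, which came to 22 of the 41174 probes on the array and to 10 of the 19532 genes with a probe of their own. An exact 0 in the deposited values was read as not measured, and 8 of the 10 genes had enough values to be tested, among 13501 genes in all. Fgf5 and Fgf22 did not, and are described by their single values.

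Skin was taken from mice of the Tsk2 genotype at 4 months and at 1 month of age, with 4 skin samples per age. Tsk2 is the tight-skin 2 mutation, used as a mouse model of scleroderma. All 8 samples carried Tsk2. Wild-type skin was not analysed here, which leaves age as the comparison and not the mutation. The sample titles call the mice transgenic and give no strain, sex or number of animals. RNA came from whole skin and was labelled with Cy3, against a cell line reference named UMR in the labels, labelled with Cy5. At each age 1 sample was run on 2 arrays, which were averaged. The sample titles hold ID numbers. At 4 months samples 2 and 3 shared a number, and at 1 month samples 1 and 2 shared one, as did samples 3 and 4. None of these numbers appears at both ages, so age cannot be told apart from other differences between these numbers, such as the animal or litter. In bulk skin, fewer cells of a type and less RNA per cell cannot be told apart either.

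FGF ligands bind receptor tyrosine kinases on the cell surface together with heparan sulfate chains, and the receptors signal through the adaptor Frs2 and the Ras to ERK cascade. In skin, mesenchymal Fgf7 and Fgf10 act on the epithelial form of Fgfr2. The hair cycle is a classic setting for this family, since Fgf5 is the signal that ends follicle growth and its loss gives the long coat of the angora mouse, while Fgf18 is made in resting follicles. Fgf13 resembles the ligands in sequence but is not secreted. It stays in the cell, where it binds sodium channels and microtubules.

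Each value below is a log2 ratio, with skin as the numerator. The deposited table names neither the log base nor the numerator, and log2 and this direction are likely rather than certain. The largest deposited value was 11.2 in size, more than the 4.82 that a 16-bit scanner can give on the log10 scale or the 11.1 on the natural-log scale. In the sign used here, the epidermal keratinocyte list had a median of 3.75 to 5.44 on the 10 arrays, the skeletal muscle list 4.08 to 6.60 and the cell division list -3.55 to -0.33. If the numerator were the other dye, each higher value below would read as lower, with the same sizes and tests. The number of arrays limits the precision. Exact zeros made up 26.1% to 47.4% of an array's probes. Of the values that were measured, 47.4% to 57.6% on each array were held by 20 or more probes of that array, and such a value is called a shared value below. The labels do not state whether the samples are separate animals. The p-values therefore cover the spread among these 8 samples alone, part of which may be technical.

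The RefSeq promoter table (GRCm38.p6) held 13 promoters of 9 members, from 250 bases before to 50 after the annotated start, and 3 are shown for the growth-ending ligand Fgf5, the ligand Fgf18 and the receptor Fgfr2, whose values are described next. Capitals mark matches on either strand to 4 motifs: the TATA box TATAAA, the GC box GGGCGG, the LEF/TCF core CTTTGA and the E-box CACGTG. No matches overlapped in these 3 windows.
Fgf5, chr5:98253934-98254233, plus strand: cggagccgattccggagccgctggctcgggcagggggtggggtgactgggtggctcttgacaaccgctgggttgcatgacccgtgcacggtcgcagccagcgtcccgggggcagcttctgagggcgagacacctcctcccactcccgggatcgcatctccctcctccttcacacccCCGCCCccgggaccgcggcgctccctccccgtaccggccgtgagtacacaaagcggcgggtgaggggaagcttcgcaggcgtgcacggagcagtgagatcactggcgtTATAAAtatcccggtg
Fgf18, chr11:33147351-33147650, minus strand: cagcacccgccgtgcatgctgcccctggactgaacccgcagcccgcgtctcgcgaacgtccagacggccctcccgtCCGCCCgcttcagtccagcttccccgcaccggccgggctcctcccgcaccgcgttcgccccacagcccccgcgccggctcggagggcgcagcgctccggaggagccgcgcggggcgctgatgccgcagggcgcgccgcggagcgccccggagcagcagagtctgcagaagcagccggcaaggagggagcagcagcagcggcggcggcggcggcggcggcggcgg
Fgfr2, chr7:130266759-130267058, minus strand: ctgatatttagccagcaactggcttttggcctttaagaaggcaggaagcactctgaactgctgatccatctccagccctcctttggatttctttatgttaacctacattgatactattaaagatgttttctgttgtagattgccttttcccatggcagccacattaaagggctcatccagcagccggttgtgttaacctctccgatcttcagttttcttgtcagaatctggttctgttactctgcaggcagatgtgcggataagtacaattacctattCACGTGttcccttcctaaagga
The Fgf5 promoter held GGGCGG on the opposite strand at -74 and TATAAA at 35, inside the transcript. The Fgf18 promoter held GGGCGG at -174 on the opposite strand, and that of Fgfr2 held CACGTG at 29. GGGCGG stood in 9 of the 13 member promoters and in 35.7% of all 32851 promoters. TATAAA stood in 2 of the 13 and in 13.6% of all, CACGTG in 1 and in 7.15%, and CTTTGA in 0 and in 16% of all. The GC content was 68.3% for Fgf5 and 78.7% for Fgf18, against 43.7% for Fgfr2. These matches describe the letters of the window only.

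Fgf5 was measured well above the reference in the samples of 1 ID number. Its only probe gave 6.01 and 5.93 in 1-month samples 3 and 4, where 0.257% and 0.283% of measured probes were higher. It was listed at 0 on the 3 arrays of 1-month samples 1 and 2. At 4 months it gave -0.14 in sample 1 and 0.95 on the second array of sample 2, values held by 2687 and 526 probes of those arrays. It was listed at 0 on the first array of sample 2 and in samples 3 and 4. Its highest values thus belonged to 1 of the 2 ID numbers at 1 month, and in the samples listed at 0 its level is not known. With 2 measured samples per age it was left out of the planned test. When a value in 2 samples of each age was enough, its log2 difference was -5.57 ± 0.48 (SE, n = 2 per age, limma adjusted p = 0.00852), a test that leaves out the samples listed at 0, rests on 1 ID number at 1 month and has shared values alone at 4 months. With zeros kept as values the difference was -2.92 ± 1.57 and did not pass (SE, n = 4 per age, interval -6.64 to 0.80, limma adjusted p = 0.417).

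The rare pattern of Fgf5 was shared by few probes. Over the whole array, 8 probes lay above 4 in both 1-month samples 3 and 4 without a shared value, and in the other 6 samples were either not measured or at a shared value. This rule was set after the values of Fgf5 were seen. Besides Fgf5 they named the hair keratin-associated protein genes Krtap6-5 (7.45 and 6.69 in 1-month samples 3 and 4), Krtap12-1 (5.74 and 5.69) and Krtap19-2 (5.28 and 4.82), and Tgm3, a transglutaminase of the hair shaft and epidermis (4.05 and 4.10). The gap junction gene Gjb2, the transporter gene Slc5a8 and Atp13a4 made up the rest. Some of their shared values in other samples were well above 0. Gjb2 was 2.67 and Slc5a8 2.46 in 1-month sample 1, and Krtap12-1 was 2.29 in 4-month sample 2. The same rule applied to 1-month samples 1 and 2 found 0 probes. As the rule was drawn from Fgf5 in samples 3 and 4, both counts are a description and not a test.

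Fgf22, a ligand of the Fgf7 subfamily found in the inner root sheath, had its highest values in the same samples. Its first probe gave 2.38 and 2.03 in 1-month samples 3 and 4, values held by 27 and 54 probes of those arrays, and 0.28 in 1-month sample 2, held by 1502 probes. It was listed at 0 on both arrays of 1-month sample 1 and on all 5 arrays at 4 months. The second probe was measured on 2 arrays, at values held by 2403 and 319 probes. The gene was left out of the planned test, and with zeros kept as values its difference was -0.55 ± 0.30 (SE, limma adjusted p = 0.422).

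**Figure D1:**
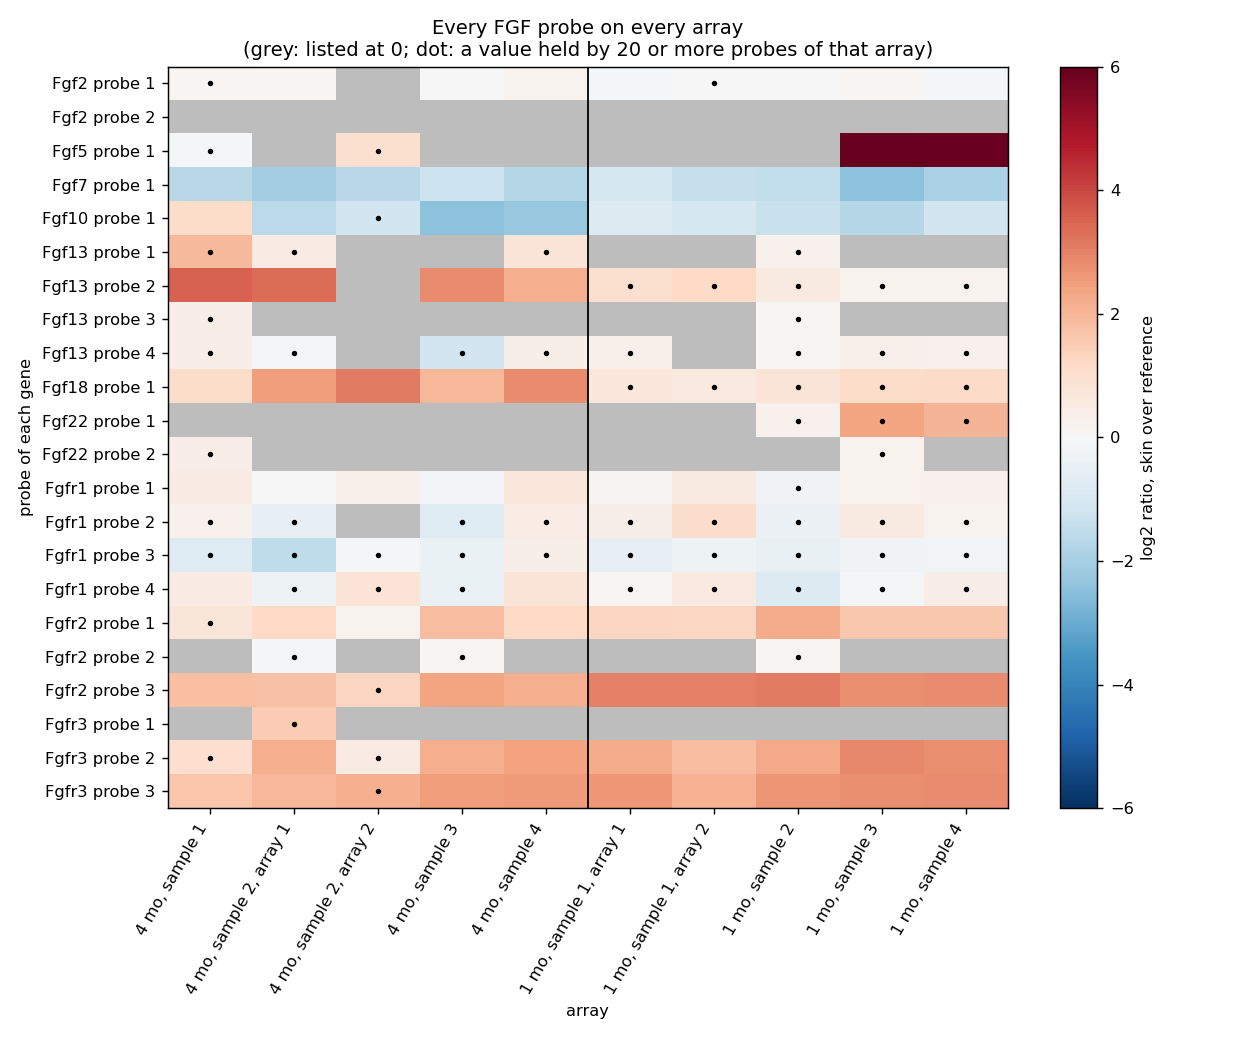
All 22 FGF probes (rows, numbered within a gene in the order of their IDs) on all 10 arrays (columns, 4 months left of the line, 1 month right), coloured by the log2 ratio of skin over reference. Grey marks an exact 0 and a dot a shared value; the 2 darkest cells are Fgf5 in 1-month samples 3 and 4 (6.01 and 5.93), and Fgf13 probe 2 is dark in the 4-month samples (2.16 to 3.56).

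Fgf18 was higher on average at 4 months but did not pass the test. Its probe gave 1.11, 2.81, 1.99 and 2.84 in 4-month samples 1 to 4, and 0.60, 0.78, 1.09 and 1.13 in 1-month samples 1 to 4. 4-month samples 2 to 4 lay above every 1-month sample, and sample 1 lay inside the 1-month range. The means were 2.19 ± 0.82 at 4 months and 0.90 ± 0.25 at 1 month (SD, n = 4 per age), a log2 difference of 1.26 ± 0.42 (SE, 95% interval 0.31 to 2.20, limma adjusted p = 0.103). The exact permutation p was 0.0571, where 0.0286 is the smallest that 4 against 4 can give. Without 4-month sample 1 the difference was 1.67 and passed (limma adjusted p = 0.0316). All 1-month values of Fgf18 were shared values, held by 29 to 57 probes, against 2 to 17 probes at 4 months.

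Fgf7, the keratinocyte growth factor made by dermal cells, did not separate the ages. It was -1.65, -1.86, -1.29 and -1.72 in 4-month samples 1 to 4, and -1.23, -1.49, -2.46 and -1.95 in 1-month samples 1 to 4. The 4-month values lay within the 1-month range, and the lowest 1-month values were in samples 3 and 4, the samples with high Fgf5. The log2 difference was 0.15 with a 95% interval of -0.56 to 0.86 (limma adjusted p = 0.83), and without 1-month sample 3 it was -0.07.

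Fgf10, a mesenchymal ligand of Fgfr2, spread more at 4 months than any other tested member. It was 1.12 in 4-month sample 1 but -1.38, -2.46 and -2.27 in samples 2 to 4, against -0.92, -1.32, -1.72 and -1.14 in 1-month samples 1 to 4. Sample 1 was the only one above 0. The means were -1.25 ± 1.65 at 4 months and -1.28 ± 0.34 at 1 month (SD, n = 4 per age), and the difference was 0.12 with an interval of -1.58 to 1.82 (limma adjusted p = 0.947). Without 4-month sample 1 it was -0.78 (limma adjusted p = 0.296). In that sample Fgf13 was also the highest of its age, while Fgf18 and Fgfr3 were the lowest of theirs. Several cell lists stood at an end of their 4-month range there. White adipocyte genes averaged 5.20 (3.18 to 4.31 in the other 4-month samples) and endothelium genes 2.80 (0.93 to 2.16). Keratinocyte genes averaged 4.23 (4.70 to 5.45) and hair matrix genes 0.44 (0.89 to 1.37). The part of cell makeup in these values was not tested.

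Fgf2, basic FGF, lay close to the reference in every sample. It was 0.12, 0.08, 0.01 and 0.20 in 4-month samples 1 to 4, and -0.02, 0.02, 0.06 and -0.10 in 1-month samples 1 to 4. The difference was 0.12 (interval -0.31 to 0.55, limma adjusted p = 0.762). The second probe of Fgf2 was listed at 0 on all 10 arrays.

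Fgf13 gave the only call among the members, on 1 of its 4 probes. Probe A_52_P154877 was 3.56, 3.37, 2.85 and 2.16 in 4-month samples 1 to 4, and 1.09, 0.56, 0.21 and 0.23 in 1-month samples 1 to 4. The lowest 4-month value was above the highest 1-month value. This probe rose at 4 months, to 2.98 ± 0.63 against 0.52 ± 0.41 at 1 month (SD, n = 4 per age), a log2 difference of 2.45 ± 0.38 (SE, interval 1.60 to 3.29, limma adjusted p = 0.0101 over 21103 probes). Of all probes tested, 5.85% were called and 3.32% were called as higher. The ages did not overlap for 19.6% of all probes, and for 2 of the 14 member probes. The call held without each of the 8 samples in turn (limma adjusted p from 0.00197 to 0.0452). Every 1-month value of this probe was a shared value, held by 33 to 766 probes, while the 4-month values were held by 2 to 19. The size of the difference is therefore uncertain, and with shared values taken as not measured the probe could not be tested. It was listed at 0 on the second array of 4-month sample 2, and with zeros kept as values it did not pass (2.07, limma adjusted p = 0.0818).

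The other probes of Fgf13 gave no call. Probe A_52_P855632 was 0.42, -0.07, -1.15 and 0.35 in 4-month samples 1 to 4, and 0.30, 0.09, 0.29 and 0.24 in 1-month samples 1 to 4. All of these were shared values, held by 424 to 3382 probes, and the difference was -0.28 (interval -1.12 to 0.56, limma adjusted p = 0.719). Probe A_51_P409220 was measured in 3 samples at 4 months (1.94, 0.48 and 0.78) and in 1 at 1 month (0.28), and the fourth probe in 1 sample of each age. The mean of both tested probes was 1.44 ± 0.49 at 4 months and 0.38 ± 0.22 at 1 month (SD, n = 4 per age), a log2 difference of 1.085 ± 0.31 that did not pass (SE, limma adjusted p = 0.0677), although the ages did not overlap. Without 4-month sample 3 it was 1.25 and without 4-month sample 4 it was 1.15, and both passed (limma adjusted p = 0.0472 and 0.0397). In the fit without 4-month sample 4, 2172 of 12839 genes passed, against 979 of 13501 as planned. The platform annotation assigns A_52_P855632 to a sequence of its own (AF199608) and the other probes to the reference transcript (NM_010200). RefSeq lists 4 starts for Fgf13, and which transcripts each probe detects was not tested.

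Fgfr1, a receptor found mainly in dermal cells, passed the test on 0 of its 4 probes. The gene was 0.12, -0.22, -0.43 and 0.56 in 4-month samples 1 to 4, and 0.25, -0.46, 0.10 and 0.18 in 1-month samples 1 to 4. Both ages spanned 0 and overlapped widely. The difference was 0.03 (interval -0.65 to 0.72, limma adjusted p = 0.962), and by probe it ran from -0.36 to 0.36, with 2 probes above 0 and 2 below. In 3 of the 4 probes, 8 to 10 arrays held shared values.

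Fgfr2, the epithelial receptor for Fgf7, Fgf10 and Fgf22, was lower on average at 4 months. The gene was 1.27, 1.11, 2.09 and 1.69 in 4-month samples 1 to 4, and 2.13, 2.66, 2.21 and 2.23 in 1-month samples 1 to 4. The highest 4-month sample, 3, lay just under the lowest 1-month sample, 1. The means were 1.54 ± 0.44 at 4 months and 2.31 ± 0.24 at 1 month (SD, n = 4 per age). The log2 difference was -0.78 ± 0.31 (SE, interval -1.48 to -0.07), with an unadjusted p = 0.034 in limma and an adjusted p = 0.168. Probe A_52_P363110, at a shared value on 1 array, was 1.83, 1.52, 2.35 and 2.17 in 4-month samples 1 to 4, and 3.02, 3.11, 2.80 and 2.84 in 1-month samples 1 to 4. Its difference of -0.97 ± 0.27 did not pass (SE, limma adjusted p = 0.0681). It passed without 4-month sample 4 (-1.05, limma adjusted p = 0.0337), with shared values taken as not measured (-0.92, limma adjusted p = 0.0378) and with no block (limma adjusted p = 0.0267). By gene, 2172 of 12839 passed without 4-month sample 4 and 2022 of 13501 with no block, against 979 of 13501 as planned. With shared values taken as not measured, 979 of 8618 genes passed, and that setting was added after the data were seen. Probe A_51_P432403 gave -0.58 with overlapping ages (limma adjusted p = 0.409). Whether the probes tell the epithelial splice form from the mesenchymal one was not tested.

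Fgfr3, which in skin is mainly a receptor of keratinocytes, was in the same direction but overlapped. It was 1.33, 1.71, 2.35 and 2.46 in 4-month samples 1 to 4, and 2.19, 2.45, 2.82 and 2.83 in 1-month samples 1 to 4. Samples 3 and 4 of 4 months lay inside the 1-month range. The difference was -0.62 ± 0.33 (SE, interval -1.36 to 0.12, limma adjusted p = 0.291), and its probes gave -0.78 and -0.46. Without 4-month sample 1 it was -0.37.

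**Figure D2:**
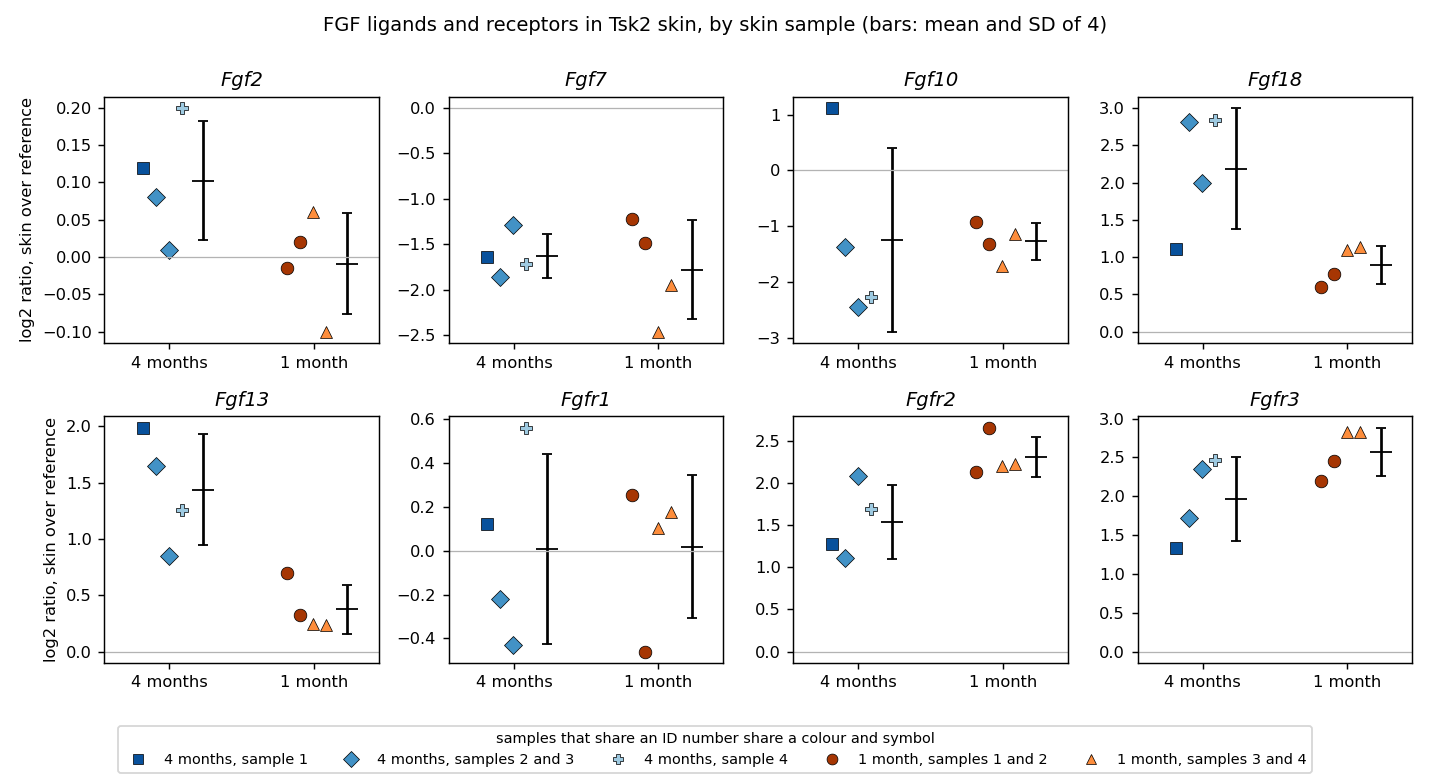
Log2 ratio of skin over reference (vertical axes, scaled per gene) for the 8 tested FGF genes in each skin sample, 4 months left and 1 month right, with the mean and SD of 4 samples beside the points. Colours and symbols mark samples of 1 ID number; the ages of Fgf13 and Fgfr2 do not overlap, and Fgf10 at 4 months runs from -2.46 to 1.12.

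In the test by gene, 0 of the 8 tested members passed the limma threshold of an adjusted p under 0.05, where 7.25% of the 13501 genes did (4.19% higher and 3.06% lower at 4 months). At an unadjusted p under 0.05 there were 3 of 8 (Fgf13, Fgf18 and Fgfr2), against 24.3% of all genes. Ages did not overlap for 2 of 8, Fgf13 and Fgfr2, against 21.1% of all genes. The median difference of the 8 members was 0.12 and that of all genes 0.03. Ordered by their difference, Fgf18 and Fgf13 came first, then Fgf7, Fgf2, Fgf10 and Fgfr1, then Fgfr3 and Fgfr2. Neighbours in this order did not separate beyond their intervals, and ratios of different probes to the reference are not compared as levels. Of the 8 exact permutation p-values by gene, those of Fgf13 and Fgfr2 were 0.0286, the smallest possible, and 0.114 when adjusted over the 8.

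**Figure D3:**
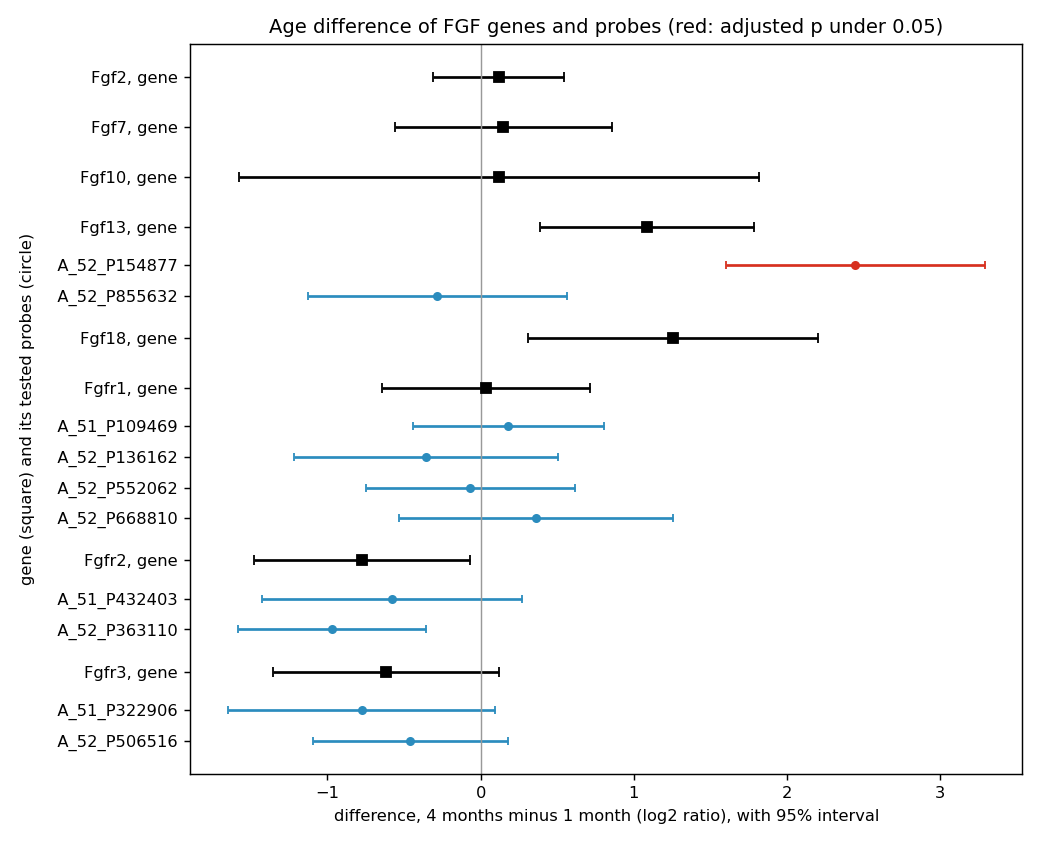
Difference between ages, 4 months minus 1 month, in log2 ratio with its 95% interval, for the 8 tested FGF genes (squares) and, where a gene has several tested probes, for each probe (circles). Probe A_52_P154877 of Fgf13, in red, is the only one past an adjusted p of 0.05; the gene intervals of Fgf13, Fgf18 and Fgfr2 also leave out 0.

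The samples run on 2 arrays show the technical error of these values. In 4-month sample 2, the 10 member probes measured on both arrays differed by a median of 0.53, against 0.32 over 20347 probes, and by up to 1.67 (the Fgfr3 probe A_51_P322906, 2.18 and 0.51). In 1-month sample 1 the median over 13 member probes was 0.24, against 0.34 over 23084 probes, and the largest was 0.73. Probes listed at 0 on 1 of the 2 arrays are not in these medians, and Fgf13 probe A_52_P154877 is 1 of them in 4-month sample 2, with 3.37 on the first array and 0 on the second.

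The genes most like each member over the 8 skin samples, among 12396 others measured in all of them, are given as a description. These samples share the split by age and by ID number. For Fgfr2 the closest were the histone gene H3f3a (r = 0.995), Fmn2 (0.987) and the plexin gene Plxna1 (0.986). For Fgfr3 they were Ptpn13 (0.988), the netrin receptor gene Unc5b (0.979) and Lrrc42 (0.978). For Fgf18 they were Polr3d (0.977), the plectin gene Plec (0.973) and the co-chaperone gene Bag3 (0.962), and for Fgf13 1700123K08Rik (0.969), Tysnd1 (0.953) and Plekhm1 (0.951). For Fgf10, Lncbate1 (0.954), Rbpms2 (0.948) and the keratin gene Krt19 (0.941) came first, for Fgf7 Tnfrsf22 (0.942), Zfp955a (0.926) and Nfatc4 (0.925), for Fgfr1 Sh3pxd2b (0.969), Phlda1 (0.961) and Reep6 (0.948), and for Fgf2 Asah2 (0.936), Fam241b (0.927) and Zfp772 (0.909).

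Other genes of the pathway were taken from 6 lists of 82 genes, of which 73 had a probe and 58 were tested. Of the 58, 1 rose and 2 fell, or 5.17%, against 7.25% of all genes, with a median difference of -0.06. Among the remaining ligands, 3 of 12 could be tested (Fgf8, Fgf9 and Fgf21) and 0 of these passed by limma or had an unadjusted p under 0.05. Fgf6 was listed at 0 on all arrays, and Fgf1 was measured in too few samples for the test. Fgf11, the only tested homologous factor besides Fgf13, differed by 0.15 (limma adjusted p = 0.8).

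Flrt3, a transmembrane protein that binds FGF receptors, fell at 4 months. It was 2.28, 2.72, 3.10 and 4.14 in 4-month samples 1 to 4, and 4.78, 5.69, 5.51 and 5.52 in 1-month samples 1 to 4. The ages did not overlap, and the means were 3.06 and 5.37, a log2 difference of -2.29 ± 0.44 (SE, limma adjusted p = 0.0191). Both of its probes fell, by 2.63 and by 1.96 on the log2 scale. The call held without each sample in turn (limma adjusted p from 0.00211 to 0.0482). It ended with zeros kept, with the muscle covariate and on means per ID number (limma adjusted p = 0.0526, 0.0662 and 0.121). Fgfr4, the remaining FGF receptor, was -1.41 with an interval of -2.97 to 0.15 (limma adjusted p = 0.252), and the decoy receptor gene Fgfrl1 was 0.51 (limma adjusted p = 0.576).

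Among 19 tested genes of heparan sulfate proteoglycans and their enzymes, 1 rose and 0 fell, or 5.26%, against 7.25% of all genes. This was Gpc1, which encodes the membrane proteoglycan glypican-1, at 0.50, 1.96, 1.54 and 0.87 in 4-month samples 1 to 4, and -0.37, -0.85, -0.08 and -0.08 in 1-month samples 1 to 4. Every 4-month sample lay above every 1-month sample, and the difference was 1.49 ± 0.36 (SE, limma adjusted p = 0.0405). Leaving out any of 4-month samples 2 and 3 and 1-month samples 1 and 2 ended the call (limma adjusted p from 0.0714 to 0.125). So did using first arrays only, zeros kept, the muscle covariate and means per ID number (limma adjusted p = 0.0538, 0.0841, 0.131 and 0.170). Ages did not overlap for 2 of the 19, Gpc1 and Sulf2, against 21.1% of all genes. Sulf2 was lower at 4 months and did not pass (-1.02, limma adjusted p = 0.0888).

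In the cascade below the receptors, 12 of 18 genes were tested, and 0 rose and 1 fell. At an unadjusted p under 0.05 in limma there were 6 of 12, against 24.3% of all genes. Sos2 and Grb2 were higher at 4 months, and Braf, Nras, Sos1 and Gab1 lower. Ages did not overlap for 5 of the 12, against 21.1% of all genes. Braf, a kinase between Ras and ERK, was -0.04, 0.10, -0.57 and 0.36 in 4-month samples 1 to 4, and 1.59, 0.65, 2.06 and 2.00 in 1-month samples 1 to 4. It was lower in every 4-month sample than in any 1-month sample, and the difference was -1.59 ± 0.39 (SE, limma adjusted p = 0.0397). Its 4 probes gave -1.28, -1.67, -1.53 and -1.87, of which the second and the third passed. The call ended when any of 4-month samples 1, 2 and 3 and 1-month samples 1 and 4 was left out (limma adjusted p from 0.0514 to 0.169), and also with one probe per gene, zeros kept and means per ID number (limma adjusted p = 0.0606, 0.0770 and 0.119). With the muscle list as a covariate the difference was -0.87 and did not pass (limma adjusted p = 0.159).

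Of 17 feedback inhibitors and transcriptional targets, 0 passed by limma, and 3 had an unadjusted p under 0.05, against 24.3% of all genes. These were Etv4, Ccnd1 and Fos, which did not share a direction. Ccnd1 was lower at 4 months (-1.12, limma adjusted p = 0.0717) and Fos higher (1.22, limma adjusted p = 0.167). The ETS factor gene Etv4, a target of FGF signalling, was -1.56, -1.32, -1.02 and 0.27 in 4-month samples 1 to 4, and 1.62, 0.94 and 0.48 in 1-month samples 1 to 3, with no value in sample 4. Its difference was -1.83 ± 0.50 (SE, limma adjusted p = 0.0643), and it passed without 4-month sample 4 (-2.30, limma adjusted p = 0.00579). With no block Etv4 passed too (-1.92, limma adjusted p = 0.0278), where 2022 of 13501 genes did. Without 1-month sample 1, 2 or 3 it had too few values to be tested. It also passed without 1-month sample 4 (-1.90, limma adjusted p = 0.0468), though that sample held no Etv4 value. That fit used the same Etv4 values with another set of tested genes. Its correlation within ID numbers, estimated over all genes, was 0.067 against 0.313 as planned. Dusp6, a phosphatase of ERK, was -0.76 (limma adjusted p = 0.413) and passed without 4-month sample 4 (-1.31, limma adjusted p = 0.0236). Without that sample 2172 of 12839 genes passed, against 979 of 13501 as planned, and the correlation within ID numbers was 0.170. The Sprouty genes Spry1 (0.42), Spry2 (0.24) and Spry4 (-0.22), and Etv5 (0.15), had intervals that held 0. Spry2 was -0.11 without 1-month sample 1.

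**Figure D4:**
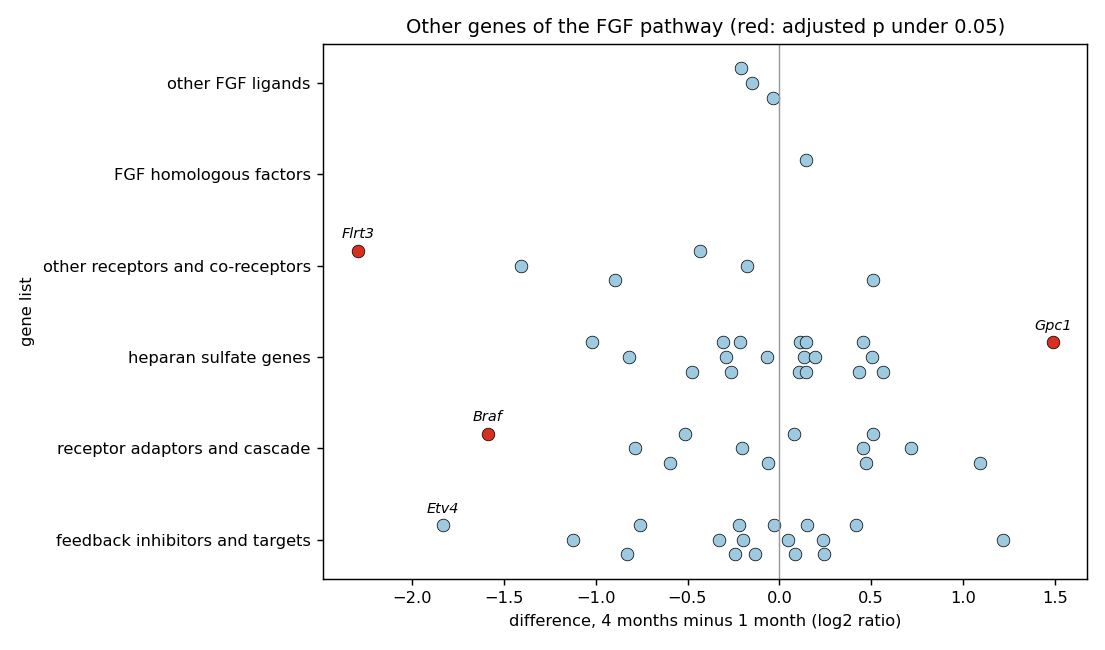
Difference between ages, 4 months minus 1 month, in log2 ratio (horizontal axis) for each of the 58 tested pathway genes, by list (rows, with points spread vertically only for legibility). Red points passed an adjusted p of 0.05: Flrt3 (-2.29) and Braf (-1.59) lower and Gpc1 (1.49) higher at 4 months; Etv4 is named though it did not pass.

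Most cell division markers and some markers of growing hair follicles fell at 4 months. Of the hair matrix and growing follicle list, 20 of 24 genes were tested, 0 rose and 7 fell, among them Lef1, Hoxc13 and Shh, against 3.06% of all genes that fell. All 20 were lower at 4 months, 12 of them at an unadjusted p under 0.05 in limma, against 24.3% of all genes in either direction. Ages did not overlap for 9, against 21.1%. Inner root sheath genes of the list did not pass (Krt25 -0.76, Krt27 -0.30, Krt71 -0.39 and Tchh -1.71, limma adjusted p = 0.479, 0.804, 0.751 and 0.294). The genes named from this list were singled out after their values were seen. The mean over the list was 0.44 to 1.37 in 4-month samples and 2.30 to 2.76 in 1-month samples. Of the cell division list, 14 of 15 were tested, 0 rose and 11 fell (78.6%), against 3.06% of all genes that fell. Its means were -3.29 to -2.09 at 4 months and -1.17 to -0.64 at 1 month. In the dermal papilla list, the source of Fgf7 and Fgf10 in the follicle, 0 of 6 tested genes passed by limma, 1 had an unadjusted p under 0.05, and means were -0.64 to 0.21 at 4 months and -0.87 to 0.72 at 1 month. The list of the bulge, where Fgf18 and Fgf13 are known to be expressed, had 1 rise (Nfatc1) and 1 fall (Lgr5) among 11. That is 18.2%, against 7.25% of all genes. In this list 4 genes had an unadjusted p under 0.05 in limma, against 24.3% of all genes. Ages did not overlap for 4 of the 11, against 21.1%. The list means were 1.16 to 2.12 at 4 months and 1.85 to 2.10 at 1 month.

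Lists for the other tissues follow. Of all genes, 7.25% passed the limma threshold and 24.3% had an unadjusted p under 0.05. The epidermal keratinocyte list, the tissue of Fgfr2 and Fgfr3, had 0 of 13 tested genes past the limma threshold (1 at an unadjusted p under 0.05) and means of 4.23 to 5.45 at 4 months and 4.47 to 5.53 at 1 month. The dermal fibroblast list had 0 of 12 (2 at an unadjusted p under 0.05). Its means were 1.07 to 1.92 at 4 months and 1.32 to 2.15 at 1 month. Endothelium genes had 1 rise (Flt1) and 0 falls among 8, and all 8 were higher at 4 months. Of these, 3 had an unadjusted p under 0.05 in limma, and ages did not overlap for 3. The endothelium means were 0.93 to 2.80 at 4 months and 0.69 to 1.79 at 1 month. White adipocyte, nerve and leukocyte lists had 0 of 9, 0 of 5 and 0 of 11 past the limma threshold. Skeletal muscle genes had 5 rises and 0 falls among 22 (22.7%), where 4.19% of all genes were called as higher. Of the 22, 7 had an unadjusted p under 0.05 in limma. Ages did not overlap for 7, against 21.1% of all genes. The muscle means were 5.04 to 6.65 at 4 months and 4.04 to 5.48 at 1 month. With the mean of the muscle list as a covariate, Fgfr2 was -1.26, Fgfr3 -0.84 and Fgf13 1.48, and none of these passed in limma (adjusted p = 0.0918, 0.303 and 0.0743). Fgf10 was 0.88 and Fgfr1 0.52 in that fit, against 0.12 and 0.03 without the covariate, and neither passed (limma adjusted p = 0.627 and 0.347). The muscle means of the 2 ages overlapped only in part, so with 8 samples this fit cannot tell muscle content from age. The part of cell makeup in the FGF values was not tested. Sox2 of the dermal papilla list was listed at 0 on all arrays.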

How the data were processed

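Skin RNA of Tsk2 mice was measured on 10 two-colour arrays, 5 per age. Per the labels, 200 ng of total RNA from a fibrous tissue kit went through Agilent Quick-Amp labelling, with skin in Cy3 and the reference in Cy5, with no dye swap recorded. The deposited values are log2 ratios made by the authors, with the base inferred from the values. For background and dye correction, the method is not given in the sources used here. Their sign was turned so that skin stands over reference. Exact zeros were taken as not measured, and repeat arrays were averaged.

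Of 41174 probes, 32664 had 1 gene symbol, 45 several and 8465 none in the platform annotation, and only the first kind was named. A probe and a gene needed values in 3 samples of each age. Probes of a gene were averaged, and an additive fit of probes and samples stood in for single missing values. The comparison of ages used R 4.3.3, limma 3.58.1 and statmod 1.5.0, with the ID number as a random block (consensus correlation 0.313) and Benjamini-Hochberg adjustment over all genes or probes at 0.05. The fit was tested on simulated data with known changes. Those data had normal noise and no shared values, so that test does not cover shared values. Named pathway genes were those past the threshold, up to 8 per list, and Fgf1, Fgfr4, Fgfrl1, Spry1, Spry2, Spry4, Dusp6, Etv4 and Etv5. Heparan sulfate, cascade and target genes with an unadjusted p under 0.05 were named after their values were seen. Likeness was the 3 highest Pearson correlations. Permutation tests were exact and two-sided. The members and lists were chosen with earlier results of these data known. Alternatives covered the block, zeros, scaling, probe choice, value filter, muscle covariate, repeat arrays and each left-out sample. Treating shared values as not measured was added after the data were seen.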

Additional observations from a re-analysis of the deposited data

How the results depend on the processing

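No paired analysis was possible because no ID number occurs at both ages and replicate numbers only name samples. The count of members past the limma threshold was 0 with the planned settings. It was 2 with no block (Fgf13 and Fgf18), 1 with one probe per gene (Fgf13), 1 when a value in 2 samples of each age was enough (Fgf5), and 0 to 1 over the left-out samples. The count of member probes was 1 as planned, 2 with no block, 0 with zeros kept and 1 to 2 over the left-out samples. It was also 1 with shared values taken as not measured, where the call was Fgfr2 probe A_52_P363110 and Fgf13 probe A_52_P154877 could not be tested. The count of all genes was 979 as planned, 2022 with no block, 142 with the muscle covariate and 157 to 2172 over the left-out samples (473, 504, 496 and 2172 when 4-month sample 1, 2, 3 or 4 was left out, and 157 for 1-month sample 1). On means per ID number it was 0 in limma, with 2530 genes at an unadjusted p under 0.05. The count of pathway genes was 3 as planned, 9 with no block, 0 on means per ID number, with zeros kept or with the muscle covariate, and 1 to 11 over the left-out samples. With shared values taken as not measured, 8618 genes and 6 members were tested, Fgf13 and Fgf18 not among them. In that setting 979 genes and 0 members passed.

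Fgf13, Fgf18 and Fgf2 stayed above 0 and Fgfr2 and Fgfr3 below 0 in every alternative that gave a value (18 or 19 each). Members near 0 changed sign. Fgf7 was -0.11 with the muscle covariate and ran from -0.069 to 0.25 over the left-out samples. Fgf10 was 0.88 with the muscle covariate and ran from -0.78 to 0.48 over the left-out samples, with -0.11 without 1-month sample 3. Fgfr1 was 0.52 with the muscle covariate, -0.010 with no block and -0.064 with one probe per gene, and ran from -0.18 to 0.21, with -0.11 without 1-month sample 2. Etv5 was -0.016 with the muscle covariate and -0.0048 with one probe per gene. Spry2 was -0.71 with that covariate and -0.11 without 1-month sample 1. By probe, without 1-month sample 3, Fgf7 was -0.078 and Fgf10 -0.14, and Fgf10 was -0.78 without 4-month sample 1. Fgf13 probe A_52_P855632 was 0.0023 without 4-month sample 3, and Fgfr1 probe A_52_P552062 was 0.081 and 0.039 without 4-month samples 1 and 2. The causes were not tested. Each age has 4 samples from 2 or 3 ID numbers, and shared values, whose spot intensities were not analysed here, are common in Fgf13, Fgf18, Fgf22 and Fgfr1.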
